A study of Mus musculus with 14 samples.

Results

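A stretch of mouse chromosome 14 carried fewer and lower CTCF peaks in CTCF-K20R cells than in wild-type (WT) cells on both days measured, and fewer H3K27ac peaks at day 4, the only day with H3K27ac. The segment described here runs from 40 to 70 Mb of chromosome 14 (mm10), and its members are all peak intervals that start there in the 10 deposited peak lists. There were 6697 such intervals of 529983 in all, 5875 of 445683 CTCF peaks and 822 of 84300 H3K27ac peaks. The window was chosen by its lower CTCF peak heights and fewer peaks in K20R than in WT, so those values are given below as a description, with no test. ChIP-seq, which sequences the DNA that an antibody pulls down with a chromatin protein, was performed for CTCF in mouse embryonic stem cells (mESCs, day 0) and in embryoid bodies (EBs) at day 4 of differentiation. Both genotypes came from the E14Tg2A line, kept on inactivated feeder fibroblasts, and CTCF-K20R cells carried an arginine in place of lysine 20 of CTCF, made with CRISPR/Cas9. Each of the 4 combinations of day and genotype had 2 CTCF libraries, and H3K27ac was profiled in day 4 EBs with 1 library per genotype. The labels do not say how many K20R clones were used, so genotype and clone cannot be told apart, and peak lists cannot show the K20R allele itself.

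CTCF is a zinc-finger protein that binds an asymmetric DNA motif and, together with cohesin, marks the anchors of chromatin loops and many domain boundaries. H3K27ac, acetylation of lysine 27 on histone H3, marks active promoters and enhancers. Embryoid bodies are aggregates in which embryonic stem cells leave the pluripotent state and start to form the germ layers, mesoderm and its cardiac branch among them.

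The CTCF motifs under the summits of the main sites are shown first, since the results below turn on these sites. Capitals mark the 19 bases that match the CTCF motif, read on the strand that carries it, and lower case marks the neighbouring mm10 bases. The first 6 are the strongest or nearest sites of the developmental genes, the next 2 are among the 5 strongest of the sites without a K20R call at day 4, and the last lies right of the stretch of lower signal.
Otx2, strongest site, chr14:48582246-48582284, plus strand: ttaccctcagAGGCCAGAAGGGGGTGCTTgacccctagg
Bmp4, strongest site, chr14:46363380-46363418, plus strand: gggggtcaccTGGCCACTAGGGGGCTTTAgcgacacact
Apex1, strongest site, chr14:50837396-50837434, plus strand: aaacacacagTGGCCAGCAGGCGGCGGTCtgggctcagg
Myh6, nearest site, chr14:54939553-54939591, minus strand: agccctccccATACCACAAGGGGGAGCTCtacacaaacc
Myh6 and Myh7, strongest site, chr14:55029204-55029242, plus strand: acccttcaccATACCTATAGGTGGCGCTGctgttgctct
Gata4, nearest site, chr14:63217981-63218019, plus strand: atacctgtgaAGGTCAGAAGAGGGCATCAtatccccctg
Lost site with Dad1 as nearest gene, chr14:53597476-53597514, plus strand: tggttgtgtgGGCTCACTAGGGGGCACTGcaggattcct
Lost site with 1700129C05Rik as nearest gene, chr14:58701917-58701955, minus strand: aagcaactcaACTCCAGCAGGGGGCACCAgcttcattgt
Pebp4, site right of the stretch, chr14:69862665-69862703, plus strand: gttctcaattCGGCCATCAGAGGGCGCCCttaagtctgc
The motif was a weight matrix learnt from the 1000 strongest CTCF sites on other autosomes and searched on both strands within 50 bp of the summit. A match was a score that 5% of windows placed 1 kb upstream also reached. By this measure 93.7% of the 394 low-signal sites described below held the motif, against 93.0% of 33777 comparable sites on other autosomes, and 74.7% of all 84376 autosomal sites called in any list. Motifs lay on the plus strand at 188 and on the minus strand at 181 of the 369 low-signal sites that had a match. The strongest site at Gata4 and the Zfp219 site named below had no match in this window.

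The CTCF lists held between 41360 and 77657 peaks. For each peak the number of overlapping reads at the summit (the pileup) and the local background from the control reads were recovered from the deposited fold enrichment and p-value, which succeeded for at least 99.1% of peaks in every list. At peaks with the same summit in 2 lists, the local backgrounds of replicates were correlated with r between 0.960 and 1.00 in 4 pairs, against 0.04 to 0.20 in the 24 pairs of different groups, as when replicates share 1 control. The labels list 1 input library per group, so there are 4 independent backgrounds, not 8. The pileups of the day 0 K20R pair and of the day 4 WT pair differed by less than the sampling noise, with variances of 0.769 and 0.595 times that of counting, so each of these pairs counts as 1 sample. Values are given per list, and counts or tests that take the 8 lists singly rest on fewer than 8 independent samples. Among H3K27ac peaks within 3 kb of marker start sites at day 4, the pluripotency genes Pou5f1, Nanog, Zfp42 and Sox2 had a peak in both genotypes, 3 of 4 early differentiation genes had one in WT and 1 of 4 in K20R, and 1 of 4 fibroblast genes had one in each. Of the early differentiation genes, T and Eomes, which mark early mesoderm, had a peak in WT and none in K20R. Fgf5 had 1 peak in WT and 2 in K20R, and Mesp1, another mesoderm gene, had none in either genotype. The part of these differences in the results for the segment was not tested. Peak names inside the K20R H3K27ac list carry a tag, M1, that the labels do not explain.

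CTCF peaks of the segment made up 1.42 to 1.43% of each WT list and a smaller share, from 1.16% up to 1.20%, of each K20R list. At day 0 the WT lists held 1102 and 748 peaks there and the K20R lists 619 and 604. At day 4 the WT lists held 872 and 876 and the K20R lists 498 and 556. The share of the list did not overlap between genotypes, whereas the numbers also follow the length of the lists. Overlapping peaks were merged into 1206 sites in the segment, of 86652 in the genome. Of these, 455 sites in the segment were called in all 8 lists and had a recovered pileup, of 36415 in the genome, and only these carry the height comparisons. A site had to be called in the K20R lists to be among them, so weak sites with lower K20R signal are missing from the height comparisons and appear below as lost sites.

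The heights placed the edges of the stretch elsewhere than the limits of the window. For each site the difference was the mean log2 pileup of the K20R lists minus that of the WT lists of the same day, centred so that autosomal sites outside the segment had a median of 0. A single low stretch was then fitted along the 1242 sites of chromosome 14 by least squares. Averaged over both days, the left edge fell between sites at 37950577 and 38156232 and the right edge between 66475349 and 66761816. Taking the middle of each gap, the stretch spanned 38.1 to 66.6 Mb, 28.6 Mb in length, and held 394 sites. The right edge was sharp, since the fit for 3 of the 4 K20R lists taken alone placed it in the same gap and the fourth placed it 1 site earlier, at 66433017. The left edge was less certain, because only 3 sites lay between the edge and 40788982, and single K20R lists placed it between 37885183 and 39657415. The window of 40 to 70 Mb thus began inside the stretch, and its last 64 sites lay to the right of it.

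**Figure D1:**
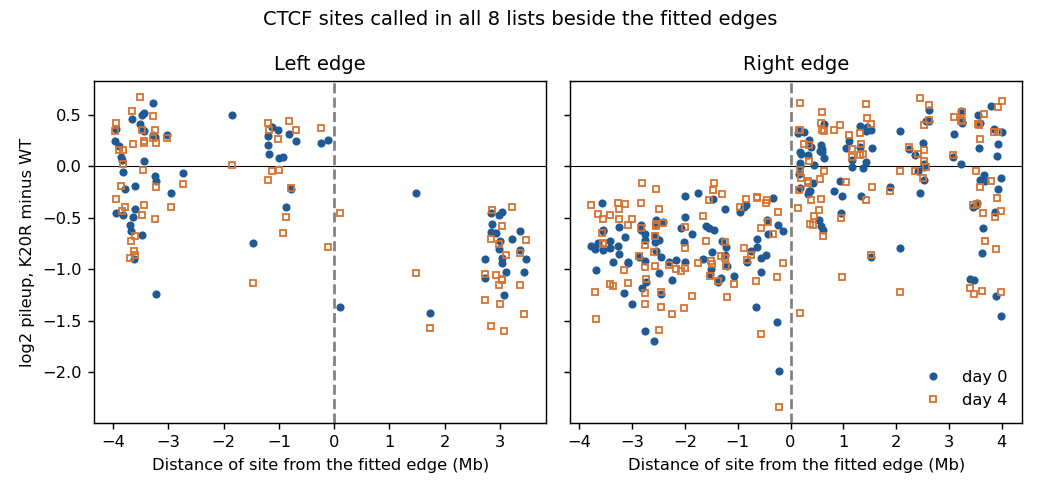
CTCF sites called in all 8 lists within 4 Mb of the fitted left edge (left panel) and right edge (right panel). Each site is drawn at its distance from the edge in Mb against its log2 pileup difference, K20R minus WT, for day 0 (filled circles) and day 4 (open squares). Sites between the edges lie almost all below 0, the left edge falls in a sparse area, and the right edge falls in a gap of 286 kb.

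The sites beside the edges showed this step directly. The last site before the left edge, at 37950067, had a difference of 0.25 at day 0 and -0.78 at day 4, and the first one inside, at 38156232, had -1.37 and -0.45. Both sites differed between days by as much as the stretch differed from its surroundings. On the right, the last 2 sites inside the edge, at 66390757 and 66474915, had differences averaged over both days of -2.17 and -0.79. The first 3 sites outside it, at 66761816, 66783532 and 66784577, had -0.04, -0.16 and 0.34. At the limits of the window itself the sites just below 40 Mb, at 39532633 and 39781813, had -0.65 and -1.50, and the first inside, at 40788982, had -1.19. Just below 70 Mb, the sites at 69861227 and 69862268 had 0.44 and 0.47, and the first 3 above, from 70021274, had -1.14, -0.39 and -1.18. These were single low sites, since the 34 sites from 70 to 71 Mb had a median of -0.06.

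No protein-coding gene spanned either fitted midpoint. On the left the nearest genes were Ghitm, which encodes a mitochondrial membrane protein and whose nearer end lay 918 kb before the midpoint, and Nrg3, which encodes a neuregulin ligand and whose nearer end, the 3′ end, lay 316 kb after it. On the right the nearest genes were Stmn4, a stathmin family gene that ended 257 kb before the midpoint, and Adra1a, an adrenergic receptor gene that began 16.7 kb after it. The gap that holds the right edge covers the start of Adra1a. By the GENCODE annotation 407 protein-coding genes began between the edges, of which 37 were olfactory receptor genes.

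Between the edges, CTCF pileups in K20R were a little under 0.6 of those in WT, relative to sites outside the segment. The median difference over the 394 sites was -0.81 at day 0 and -0.83 at day 4 on the log2 scale, which corresponds to 0.569 and 0.564 of the WT level, with SDs over sites of 0.366 and 0.443. All 394 sites (100%) were below 0 at day 0 and 99.2% at day 4, whereas on other autosomes 50.4% and 50.3% of 33777 sites were below 0. Right of the edge, the 64 remaining sites of the window had medians of 0.10 and 0.10. The rest of chromosome 14 had medians of -0.02 and -0.04. Both days thus gave nearly the same value in the stretch and on either side of it.

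The heights can also be given list by list. Relative to every site's own mean over the 8 lists, the median log2 pileup between the edges was 0.37 and 0.36 in the day 0 WT lists and 0.44 and 0.44 in the day 4 WT lists. In K20R it was -0.43 and -0.45 at day 0 and -0.34 and -0.39 at day 4. The 4 WT lists lay above 0 and the 4 K20R lists below, with no overlap. Because the mean over the 8 lists holds both genotypes, the signs restate the difference between them. Right of the edge the corresponding medians lay between -0.12 and 0.09, with WT below K20R. At 288 of the 394 sites (73.1%) all 4 K20R pileups, each over its own list's median, were below all 4 WT pileups, beside 4061 of 36415 sites (11.2%) in the genome, and at 0 of the 394 were all 4 K20R pileups above. This count takes the lists singly, although the day 0 K20R pair and the day 4 WT pair are each worth 1 sample. Because the window was chosen on these heights, no test is given.

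**Figure D2:**
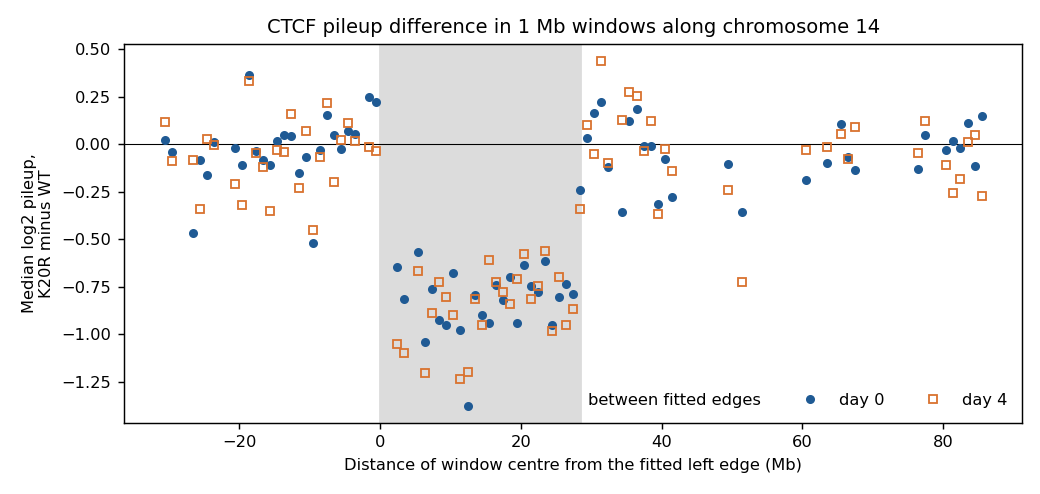
Median log2 pileup difference, K20R minus WT, in 1 Mb windows of chromosome 14 with at least 5 sites, drawn against the distance of the window centre from the fitted left edge in Mb, for day 0 (filled circles) and day 4 (open squares). The windows between the fitted edges (grey) lie between -1.38 and -0.56, apart from the window that holds the right edge, and the windows beside the stretch scatter around 0.

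In 1 Mb windows the lower signal ran through the stretch. All 25 windows from 40 to 66 Mb with at least 5 sites had a median difference, averaged over both days, below -0.5, with values from -1.23 to -0.56, and the window from 42 to 43 Mb had too few sites. In 0.5 Mb windows 30 of 31 were below -0.5, the highest at -0.48, and with only peaks of −log10 q of at least 5 it was 23 of 24, the highest at -0.42. The lowest were 50 to 51 Mb at -1.23 and 44 to 45 Mb at -1.15, and the highest was 58 to 59 Mb at -0.56. The window from 66 to 67 Mb, which holds the right edge, had -0.31, and the 3 windows from 67 to 70 Mb had 0.03 to 0.21. Elsewhere on the autosomes 35 of 1810 windows were below -0.5. The lowest of these, on chromosome 16 from 76 Mb, had -1.24 from 5 sites, so a single window elsewhere reached the same value.

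The size of the difference depended on how strong a site was, inside and outside the stretch. In the genome at large, weaker sites were lower and stronger sites higher in K20R: in 4 classes of increasing mean pileup over the 8 lists, other autosomes had medians of -0.53, -0.21, 0.09 and 0.28. Between the edges the same classes had -1.13, -0.90, -0.63 and -0.53, each below its counterpart elsewhere. Taken relative to autosomal sites in the same of 10 classes of WT pileup, a comparison added after the data were seen, the median was -0.85 at day 0 and -0.86 at day 4, or 0.555 and 0.553 of the WT level. Over these 10 classes the difference, averaged over both days, ranged from -0.96 to -0.56, and 99.7% of the sites were below 0. The same measure gave 0.09 and 0.01 right of the edge and placed both edges in the same gaps.

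Sites of different kinds shared the lower signal. The 114 sites within 3 kb of a gene start had a median difference averaged over both days of -0.80 and the 280 farther away had -0.82. The 67 sites that overlapped a WT H3K27ac peak had -0.68 and the other 327 had -0.84. The 369 sites with the CTCF motif had -0.81 and the 25 without it had -0.98, but -0.85 and -0.84 when set against sites of the same WT strength. On other autosomes the corresponding medians lay between -0.22 and 0.01.

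Fold enrichment, the measure in the deposited lists, divides the pileup by the local background and gave smaller differences, with medians between the edges of -0.60 at day 0 and -0.64 at day 4. The local background was itself lower there in K20R. The background of a list has a floor, taken here as its lowest 2%, and rises above it where control reads lie near the peak. Between the edges the background was over 1.1 times the floor at 69.3% and 68.3% of sites in the day 0 WT lists and at 58.6% and 56.9% in the day 4 WT lists. In the K20R lists it was raised at 29.4% and 27.4% of sites at day 0 and at 25.4% and 21.8% at day 4. Every K20R list was below every WT list. Replicates share a control, so their closeness does not measure the spread between independent backgrounds. Outside the edges on chromosome 14 the K20R lists were at 54.2% to 60.7% and the WT lists at 55.5% to 67.1%.

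**Figure D3:**
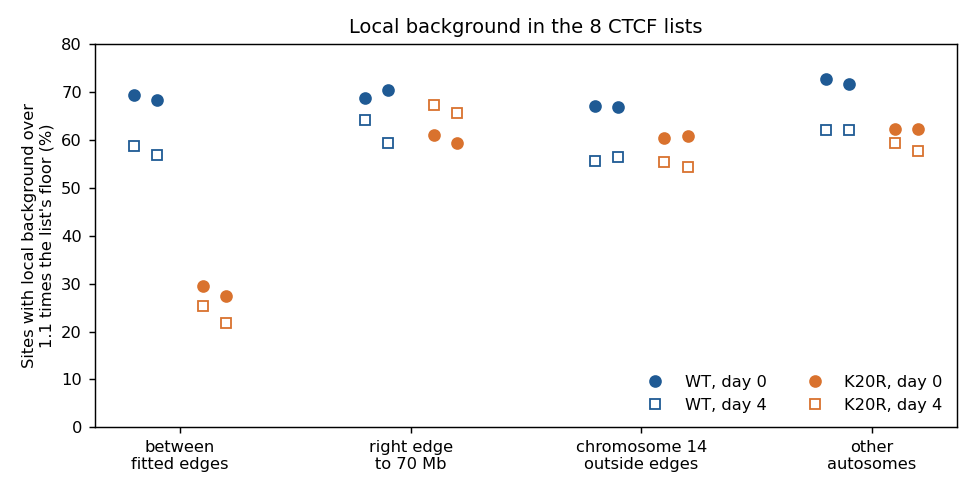
Percentage of sites called in all 8 CTCF lists at which the local background exceeded 1.1 times the floor of the list, for 4 regions (x axis). Each point is a list, WT in blue and K20R in orange, filled circles for day 0 and open squares for day 4. Between the fitted edges the K20R lists lie at 21.8% to 29.4% and the WT lists at 56.9% to 69.3%. The genotypes lie nearer each other in the other 3 regions, though at day 0 K20R is lower there too. On other autosomes at day 0 the WT lists lie at 72.6% and 71.6% and the K20R lists at 62.2% and 62.2%.

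The local background was not itself the measure that chose the window. It was recovered from the deposited fold enrichment and p-value, however, so it is not independent of the peak heights. A lower background would raise fold enrichment, not lower it. In the window of 40 to 70 Mb the median background over that of the same list's sites elsewhere was 1.00 in WT and 0.756 in K20R, a difference of -0.24, seen on both days. In an exact two-sided permutation test of the 8 lists within each day this gave p = 0.0556, the smallest value the design allows, with lists taken singly although replicates share a control. With replicate lists averaged for this reason, a choice made after seeing the data, 2 WT values stood against 2 K20R values. The 2 values of a genotype were its day 0 and day 4 values, not replicates, and they were permuted without regard to day. The exact permutation p was 0.333, again the smallest possible, so a p under the usual threshold of 0.05 cannot be reached in this design. The K20R median lay within 1.1 times the floor, below which it could not go. Relative to sites elsewhere, the share of sites with raised background between the edges was 0.944 in WT and 0.428 in K20R. The extent of the lower background was less certain than that of the lower pileups. A fit of the background alone spanned 37206560 to 66808539 at day 0 but 45155052 to 63540415 at day 4, where it held 285 sites. CTCF reads and local background were thus both lower over much of the stretch, and less CTCF on each copy of this DNA and less of this DNA in the K20R cells cannot be told apart from peak heights alone.

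Fewer CTCF sites of the stretch were called in K20R, and none were gained. A site counted as lost when both WT lists of a day called it and neither K20R list did. At day 4, 222 of 712 sites between the edges were lost, or 31.2% (Wilson 95% interval 27.9 to 34.7%, counting error only), beside 18.8% of 55053 sites in the genome. With all lists limited to 1 length the day 4 share for the whole window went from 29.3% to 13.4%, and that of the genome to 5.63%. At day 0, 117 of 648 were lost, or 18.1% (15.3 to 21.2%), beside 7.69% of 50765 sites in the genome. For the whole window the day 0 share was 16.9%, and 41.5% without the second WT library, which had the fewer peaks (29.9% in the genome). With lists of 1 length it was 11.5%, and 3.21% in the genome. Right of the edge 15 of 91 sites were lost at day 4 and 5 of 80 at day 0. Of 1234 sites lost on both days in the genome, 52 lay between the edges, which held 1093 of the 86652 merged sites. The number of sites called in all WT lists of both days was not counted. No site of the whole window was gained, that is called in both K20R lists and in no WT list, of 564 sites called in both K20R lists at day 0 and 471 at day 4. The genome held 0.426% and 0.536% such sites on the same days. A count of 0 of 564 and 0 of 471 allows shares of up to 0.532% and 0.637%, above the shares in the genome, so a difference was not detectable at this number of sites.

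Losses concentrated in weaker sites. At day 4, sites between the edges were lost in 89.6% of 125 cases in the lowest of 4 equal ranges of WT percentile of fold enrichment, in 50.9% of 173 in the next, in 10.8% of 195 in the one above and in 1 of 219 in the highest. On other autosomes the same ranges lost 61.9%, 25.9%, 1.90% and 0.0140%. At day 0 the stretch lost 85.2%, 34.9%, 2.12% and 0 of 223, against 43.8%, 10.7%, 0.220% and 0 elsewhere. A call is a threshold on height, so these counts are another form of the height comparison.

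The strongest site lost at day 4 lay at the start of Zfp219, a zinc-finger gene, at chr14:52020394-52020827, in an exon with untranslated sequence. Its pileups were 45 and 46 reads in the day 4 WT lists and 33 and 10 in the day 0 WT lists, and no K20R list called it on either day. The second, at chr14:46721974-46722365 and 38.4 kb from Cdkn3, a cell cycle phosphatase gene, had 39 and 36 reads in WT at day 4, and at day 0 it had 56 and 23 in WT and 12 and 11 in K20R. It was therefore absent only from the day 4 K20R lists. The site at chr14:55940409-55940790, 4.06 kb from the mast cell chymase gene Cma1, had 33 and 26 reads in WT at day 4, and 50 and 22 in WT at day 0, where a single K20R list called it with 9 reads. The site at chr14:58701719-58702064, far from genes, had 24 and 29 reads in WT at day 4, and 11 and 9 in K20R at day 0.
The fifth, at chr14:53597280-53597597, lay 656 kb from Dad1, which encodes an oligosaccharyltransferase subunit. It had 26 and 25 reads in WT at day 4 and 29 and 17 at day 0, and no K20R list called it. Together with the Zfp219 site it was among the 5 strongest lost on both days. The other 3 had 19 to 26 reads in WT at day 4 and lay 4.40 kb from Rnf17, a germ cell tudor domain gene, 280 kb from Olfr1507, an olfactory receptor gene, and 74.2 kb from Tmem260.

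Among sites called in all 8 lists, the lowest differences in the window all lay between the edges and the highest all to the right. The lowest, -2.30 averaged over both days, was at chr14:55785212-55785781, over an exon of Ripk3, a kinase gene of necroptosis, and 1.43 kb from the start of the adenylyl cyclase gene Adcy4. There the WT lists had 56, 39, 45 and 45 reads and the K20R lists 19, 13, 8 and 9. The next, at chr14:66390757-66391120 near Stmn4, had -2.17, with 59, 28, 42 and 50 reads in WT and 11, 17, 9 and 12 in K20R. In both cases all K20R lists lay below all WT lists. The remaining 3 had -1.94 at 644 bp from the start of Ajuba, -1.81 in an intron of Ska3 and -1.80 in a region 336 kb from Ddhd1. The 5 highest lay between 68051344 and 69862903, near Slc25a37, Pebp4 and Nefl, with 0.44 to 0.57. The highest of all, at chr14:69241334-69241903 in the mitochondrial iron importer gene Slc25a37, had 32, 35, 30 and 31 reads in WT and 66, 65, 37 and 76 in K20R.

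The 6 developmental genes Otx2, Bmp4, Apex1, Myh6, Myh7 and Gata4 all lay between the edges. All had lower pileups at their strongest CTCF site in K20R once each pileup was divided by its list's median. That site was picked by its fold enrichment in the WT lists alone, a choice that leans towards lower K20R values. For scale, all K20R lists lay below all WT lists at 73.1% of the 394 sites between the edges and at 11.2% in the genome. To compare lists, the median pileups at autosomal sites outside the segment were 56 and 33 reads in the day 0 WT lists, 57 and 56 in day 0 K20R, 40 and 41 in day 4 WT and 35 and 54 in day 4 K20R. A ratio to these medians is called the relative pileup.

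Otx2, a homeobox gene of the epiblast and anterior nervous system (chr14:48657677-48673819, minus strand), had few CTCF sites. Its strongest site within 100 kb, at chr14:48581930-48582398, had 36 and 27 reads in the WT lists of day 0, with 22 and 18 in those of K20R. For day 4 these were 30 and 37 reads against 15 and 19. The relative pileups were 0.643 to 0.902 in WT and 0.321 to 0.429 in K20R without overlap, and the log2 differences were -1.07 and -1.18. The nearest site, 23.5 kb from a start, was called only in the first day 0 WT list with 7 reads. Within 100 kb the day 4 WT lists called 3 and 2 CTCF peaks and the K20R lists 1 and 1. H3K27ac differed in the other direction by number, with 4 peaks in WT and 8 in K20R, but these covered 16.1 kb in WT and 9.59 kb in K20R. With only peaks of −log10 q of at least 5 the number reversed, to 2 in WT and 1 in K20R. The highest fold enrichment within 3 kb of an Otx2 start was 4.38 in WT and 3.53 in K20R.

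Bmp4, which encodes a secreted ligand needed for mesoderm (chr14:46383520-46390669, minus strand), had its strongest site at chr14:46363120-46363543, 27.2 kb from the nearest start. The pileups there were 37 and 19 reads in WT and 15 and 15 in K20R on day 0, against 26 and 32 and 9 and 18 on day 4. The log2 differences were -1.24 and -1.38, and relative to the list medians all K20R values (0.257 to 0.333) were below all WT values (0.576 to 0.780). CTCF peaks within 100 kb numbered 3 and 4 in the day 4 WT lists and 1 and 2 in the K20R lists. The site nearest to the start, at 1198 bp, was called only in the first day 0 WT list. No H3K27ac peak was called within 100 kb of Bmp4 in either genotype.

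Apex1, which encodes the main abasic-site endonuclease of base excision repair (chr14:50924968-50927139, plus strand), showed the largest difference of the 6. Its strongest site, 87.5 kb away over an exon of the telomerase-associated gene Tep1, had 67 and 51 reads in the day 0 WT lists and 25 and 21 in those of K20R. At day 4 the WT lists had 59 and 61 reads and the K20R lists 13 and 31. The log2 differences were -1.77 and -1.78, more than the median of the stretch on both days. The nearest site, at chr14:50919801-50920096 over an exon of Osgep, was called in 3 WT lists and in no K20R list. H3K27ac peaks within 100 kb numbered 5 in both genotypes, and the highest fold enrichment within 3 kb of the Apex1 start was 9.27 in WT and 8.78 in K20R.

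Myh6 and Myh7 encode the alpha and beta cardiac myosin heavy chains and lie side by side (chr14:54941921-54966927 and chr14:54970684-54994626, minus strand), so most of their sites are shared. Their common strongest site, at chr14:55028851-55029306, had the smallest difference of the strongest sites, -0.47 at day 0 and -0.78 at day 4. Its pileups were 95 and 54 reads in WT and 68 and 71 in K20R at day 0, and 66 and 78 against 35 and 66 at day 4. In reads the genotypes thus overlapped at day 0. Its relative pileups were 1.64 to 1.90 in WT and 1.00 to 1.27 in K20R. The site nearest to Myh6, over the neighbouring gene Cmtm5 at chr14:54939265-54939732, had -0.36 and -0.77, with relative pileups of 1.64 to 2.00 in WT and 1.04 to 1.46 in K20R. At both sites the relative pileups of the genotypes did not overlap. The fold enrichment of the site nearest to Myh6 went the other way at day 4, with 21.0 and 20.1 in WT and 22.8 and 33.2 in K20R. The site nearest to Myh7, 5.42 kb from its start, was called in 3 WT lists with 8 to 12 reads and in no K20R list. Within 100 kb of Myh7 the day 4 WT lists called 15 and 17 CTCF peaks and the K20R lists 8 and 10, while there were 12 WT and 9 K20R peaks of H3K27ac. For Myh6 the H3K27ac counts were 11 and 6. Neither gene had an H3K27ac peak within 3 kb of its start in either genotype.

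Gata4, a zinc-finger transcription factor gene of heart and endoderm (chr14:63198922-63271692, minus strand), carried its strongest site in its own intron at chr14:63255687-63256272. At day 0 the WT lists had 70 and 55 reads and the K20R lists 49 and 39. At day 4 the WT lists had 59 and 46 reads and the K20R lists 14 and 51, so the K20R replicates differed by more than 3 times in reads. Relative to the list medians the higher of the K20R values was 0.944, below the WT values of 1.48 and 1.12, and the log2 differences were -0.93 and -1.17. The nearest site, also intronic and 4.35 kb from a start, had 26, 22, 18 and 17 reads in WT, and 15, 8 and 7 in the 3 K20R lists that called it. Of H3K27ac there were 8 WT and 7 K20R peaks within 100 kb, which covered 22.0 kb and 12.6 kb.

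**Figure D4:**
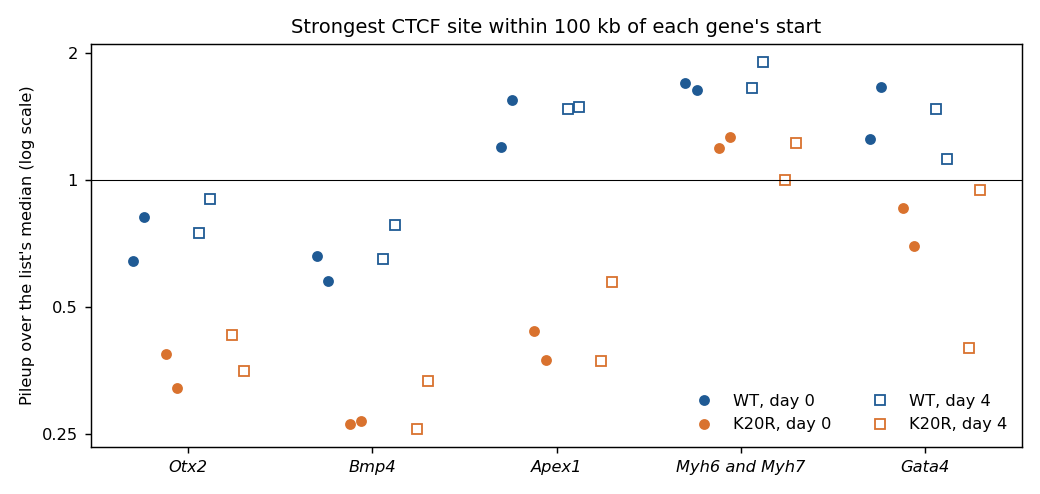
Pileup of the strongest CTCF site within 100 kb of each developmental gene, divided by the list's median at autosomal sites outside the segment (log scale), for 2 lists per day and genotype. WT is blue and K20R orange, with filled circles for day 0 and open squares for day 4. At each of the 5 sites, picked by WT strength, every K20R list lies below every WT list, by the widest margin at Apex1. The same held at 73.1% of the 394 sites between the edges and at 11.2% in the genome.

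Within 100 kb, both K20R lists called fewer CTCF peaks than both WT lists at day 4 for 6 of 6 genes and at day 0 for 3 of 6. The day 4 K20R lists were shorter throughout the genome, with 41360 and 47463 peaks against 61088 and 61436 in WT, and the same held at day 4 for 4 of 5 further genes right of the edge, so the day 4 count is not particular to the stretch. H3K27ac peaks were fewer in K20R for 3 genes, more for 1 and equal for 2. Within 50 kb they were fewer for 2 genes and more for 2, and Gata4 turned from 8 WT and 7 K20R peaks to 3 and 5. With −log10 q of at least 5 these peaks were fewer for 4 genes and more for 1. Otx2 then turned from 4 WT and 8 K20R peaks to 2 and 1. A further list of 25 genes, named for textbook roles, was examined in the same way, of which 24 lay in the window, 19 between the edges and 5 to the right. Near all 19 genes between the edges the median CTCF difference was below 0 on both days, from -1.17 to -0.41. The edges were fitted to these differences, and 100% of the sites between them were below 0 at day 0 and 99.2% at day 4. The count of 19 thus follows from where the genes lie. Of these 19 genes, 16 had fewer H3K27ac peaks in K20R, 1 more and 2 equal. In total there were 225 H3K27ac peaks in WT and 99 in K20R near these genes, where a peak near several genes counts for each. Of the 5 genes right of the edge, 1 had a median below 0 on both days, 4 had more H3K27ac peaks in K20R and 1 fewer, with totals of 20 in WT and 24 in K20R.

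The further genes with the most calls in WT were Psmb5, Ajuba, Prmt5, Chd8, Nrl, Mmp14, Zfp219, Cebpe, Sall2 and Bnip3l. Psmb5, Ajuba, Prmt5, Mmp14 and Cebpe are neighbours and share sites, so their counts are not independent. Near Psmb5, a proteasome subunit gene, there were 24 WT and 12 K20R peaks of H3K27ac, and the median CTCF differences were -0.69 and -0.69. Near Chd8, a chromatin remodeller gene, they numbered 29 and 10, with CTCF differences of -0.94 and -0.87. Near Sall2, a zinc-finger gene, they numbered 18 and 8, with -0.61 and -0.65. Near Mmp14, a membrane metalloproteinase gene, they numbered 18 and 6, with -0.72 and -0.73. Bnip3l, a mitophagy receptor gene, lay right of the edge and had 17 H3K27ac peaks in WT and 19 in K20R, with CTCF differences of -0.08 and -0.24.

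**Figure D5:**
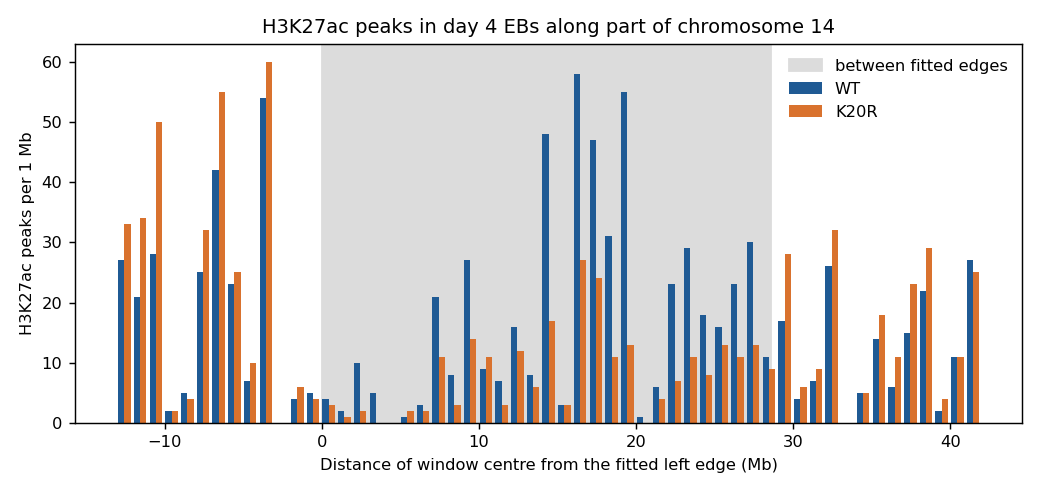
Number of H3K27ac peaks per 1 Mb window in day 4 EBs for WT (blue bars) and K20R (orange bars), against the distance of the window centre from the fitted left edge in Mb. Between the fitted edges (grey) 22 of 26 windows from 40 to 66 Mb hold fewer peaks in K20R, and the 3 windows from 67 to 70 Mb hold more. Of 96 windows of the chromosome before 38 Mb or from 67 Mb, not all drawn, 22 hold fewer and 45 more.

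H3K27ac, with 1 library per genotype and so without a replicate check, had fewer peaks over the same stretch. Between the edges there were 513 WT peaks and 234 K20R peaks, a ratio of 0.456, and they covered 752 kb and 312 kb. The median fold enrichment was 3.35 over all WT peaks and 4.07 over all K20R peaks there. These sets are unlike, since WT peaks with no K20R call enter on the WT side only. At the 199 WT peaks that overlapped a K20R peak, the medians were 5.51 in WT and 4.26 in K20R. In the whole genome the K20R list was the longer, with 45318 against 38982 peaks. Right of the edge, to 70 Mb, there were 35 WT and 50 K20R peaks. Of the 26 windows of 1 Mb from 40 to 66 Mb, 22 held fewer peaks in K20R, 2 held more and 2 the same number. Of the 96 windows of chromosome 14 before 38 Mb or from 67 Mb, 22 held fewer, 45 more and 29 the same number. The densest windows were 54 to 55 Mb with 58 peaks in WT and 27 in K20R, 57 to 58 Mb with 55 and 13, and 52 to 53 Mb with 48 and 17.

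The overlap of the 2 lists shifted in both directions. Of the WT peaks between the edges, 61.2% had no overlapping K20R peak (Wilson 95% interval 56.9 to 65.3%), beside 36.9% of all WT peaks. Of the K20R peaks, 10.3% had no overlapping WT peak (6.99 to 14.8%), beside 46.9% of all K20R peaks. Right of the edge these shares were 17.1% of 35 WT peaks and 46.0% of 50 K20R peaks. At the 199 WT peaks between the edges that did overlap a K20R peak, fold enrichment was lower in K20R at 75.4%, with a median log2 difference of -0.26. On other autosomes the median was 0.02 over 22918 such peaks, and right of the edge it was -0.01 over 29. The intervals cover counting error only.

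The strongest WT H3K27ac peaks without a K20R counterpart included the start of Fermt2, a kindlin gene of integrin adhesion, with a fold enrichment of 6.32, and that of Rem2, a small GTPase gene, with 5.43. Another, of 3312 bp and fold enrichment 5.25, lay 9.86 kb from Tnfrsf19, a receptor gene of the tumour necrosis factor receptor family. The other 2, with 6.24 and 5.67, were about 200 bp wide (208 and 226 bp). The K20R peaks without a WT counterpart were weaker apart from the first, with fold enrichments of 6.20, 4.10, 4.01, 3.97 and 3.83. The second of these lay 72.5 kb from an Otx2 start and is among the 8 K20R peaks counted near that gene, and the third lay in an intron of Adra1a, right of the edge.

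One other region of the genome, chromosome 8 from 80 to 110 Mb, gives a scale for the stretch. There the CTCF differences had medians of 0.50 and 0.52, opposite in sign and smaller in size, and the WT list held 554 H3K27ac peaks and the K20R list 1030. The local background was over 1.1 times the floor at 60.4% to 73.8% of its sites in the WT lists. In the K20R lists this share was 89.6% to 91.9%, so a genotype difference in background was not particular to the stretch. This region too was picked for its values, so the contrast with it is a description.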

How the data were processed

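According to the study's methods and the labels, the authors trimmed reads with Trim Galore, aligned them to mm10 with Bowtie2, removed low-quality, duplicate and blacklisted reads, subsampled CTCF libraries to 1 depth and ran MACS2 on each library, in narrow mode for CTCF and broad mode for H3K27ac. The control of each call is not given in the sources used here. The deposited lists give fold enrichment over background (a ratio) and −log10 p and q values. The deposited score was not used, and input libraries were not analysed here, so numbers of sequenced reads are unknown.

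Whole-number pileup and local background were solved from fold enrichment and −log10 p under a Poisson model (tolerance 0.01 on −log10 p). Peaks overlapping by 1 bp were merged, and a site kept its strongest peak per list. Edges came from a least-squares fit of 3 levels with at least 10 sites each. Gene models were GENCODE M21 and sequences RefSeq's GRCm38 assembly. Named were the 6 developmental genes with their nearest and strongest sites, the genes at the edges, the 5 strongest lost sites, the 5 lowest and highest sites, the 5 strongest unshared H3K27ac peaks per genotype and the 10 further genes with most WT calls. Strength was the mean WT percentile of fold enrichment. The members and lists were chosen with earlier results of these data known. Scripts in Python (numpy, pandas, scipy) were tested on simulated data. The study describes the CTCF replicates as biological and as independent ChIP experiments, without saying whether cultures or clones were separate, so p-values measure only the spread between these lists. Same-numbered lists did not deviate together (correlations of replicate differences -0.03 at day 0 and 0.03 at day 4), so the numbers pair nothing.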

Additional observations from a re-analysis of the deposited data

How the results depend on the processing

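Over 12 results and 95 alternatives, no summary value reversed its direction, but single genes and sites did. Among these, H3K27ac counts reversed at Gata4 within 50 kb and at Otx2 with −log10 q of at least 5. Fold enrichment reversed at the site nearest to Myh6. The test of the background could not reach 0.05 under any alternative, so it says nothing about stability. Median pileup differences over the window kept their sign throughout. They were -0.53 and -0.53 (day 0 and day 4) with fold enrichment in place of pileup, -14.6 and -15.3 percentile points with ranks of fold enrichment, -0.81 and -0.83 with the fitted edges, -0.70 and -0.69 when centred on the rest of chromosome 14, -0.76 at day 0 with peaks of −log10 q of at least 5, and -0.85 and -0.86 when matched by WT strength, a choice made after seeing the data. Leaving out each library in turn gave -0.76 to -0.72 at day 0 and -0.74 to -0.70 at day 4. The left edge moved to 39.7 Mb with fold enrichment and the right edge to 66.8 Mb with the local background; leaving out any library left both in place. Losses depended on the length of the lists. With lists of 1 length, 11.5% of WT sites of the window were lost at day 0 and 13.4% at day 4, beside 3.21% and 5.63% in the genome, and 2 and 6 sites were gained. Without the first day 0 WT library 13 sites counted as gained. Leaving out each library gave 19.1% to 41.5% at day 0, beside 9.47% to 29.9% in the genome, both highest without the second WT library. At day 4 it gave 31.8% to 38.6%, beside 21.0% to 28.3% in the genome. The share of WT H3K27ac peaks without K20R overlap was 42.0% for peaks with −log10 q of at least 5 and 52.0% for peaks of at least 1 kb, beside 16.6% and 26.9% in the genome. Paired by replicate number (replicate block, sign flips of 4 pairs), the background difference was -0.24 with an exact p of 0.125, the smallest possible. The left edge is limited by the few sites beside it, and H3K27ac by its single library per genotype.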
